A study of Mus musculus with 16 samples.

Results

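The 10 genes described here form the core of the circadian clock: Arntl and Clock, which activate transcription, Per1, Per2, Per3, Cry1 and Cry2, which repress it, Nr1d1 and Nr1d2, which hold down Arntl, and Dbp, an output factor of the loop. They were chosen by name, were all measured, and all passed the filter on low counts, among 15632 genes tested and 51060 genes matched in all. RNA was sequenced from brown adipose tissue (BAT) of 16 mice aged 7 weeks, all on the C57Bl/6J background and all carrying OPA1 fl/fl, the floxed gene of an inner mitochondrial membrane fusion protein. OPA1 BKO mice carried a Cre recombinase driven by the Ucp1 promoter, which is active in thermogenic adipocytes, and the WT mice were littermates that were Cre-. The groups held 4 WT females, 4 WT males, 4 OPA1 BKO females and 4 OPA1 BKO males. Mice ate regular chow at room temperature. The number after a mouse only names it. The question was whether the clock genes differed between genotypes, and whether single mice differed along the axis on which these genes move against each other through the day. The time of day at which BAT was collected is not given in the sources used here, so a difference in the hour of collection and a difference between groups cannot be told apart in any value below.

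The clock is a feedback loop in nearly every cell. ARNTL (also called BMAL1) pairs with CLOCK, or with its relative NPAS2, and the pair switches on the Per, Cry, Nr1d and Dbp genes through DNA elements called E-boxes. PER and CRY proteins then return to the nucleus and repress the pair. In a coupled loop, the nuclear receptors NR1D1 and NR1D2 (REV-ERBs) repress Arntl while ROR receptors activate it at the same elements. DBP, TEF and HLF activate, and NFIL3 represses, genes with a D-box. In rodent peripheral tissues Arntl and Npas2 therefore peak at nearly the opposite time of day from Dbp and Nr1d1, and Cry1 peaks late among the repressors. In BAT this loop runs with a daily rhythm, and NR1D1 is a known repressor of the thermogenic programme.

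The elements through which these factors act can be read in the promoters of some members. Windows of 300 bases, from 250 before to 50 after each start site, were taken from RefSeq on GRCm38.p6. There 9 of the 10 genes had an entry, and Per2 had none. The element letters were searched on both strands and are printed in capitals, 5′ to 3′ on the strand of the gene, and positions are counted from the start site. The sites are shown because Arntl and Cry1 rose between genotypes and Per3 fell in males (below), because Per1 holds the same kinds of element, and because each element belongs to a different arm of the loop.
Cry1, E-box CACGTG, from -60, chr10:85185098-85185125, minus strand: gtgccggtggtCACGTGgggtgcatgcc
Per1, E-box CACGTG, from -166, chr11:69098772-69098799, plus strand: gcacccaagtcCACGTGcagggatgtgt
Arntl, ROR element TAGGTTA, from -6, chr7:113207494-113207522, plus strand: tggtcggaaagTAGGTTAgtggtgcgaca
Arntl, ROR element TAGGTCA, from 31, chr7:113207530-113207558, plus strand: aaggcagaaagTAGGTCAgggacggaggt
Per3, D-box TTATGTAA, from -205, chr4:151044852-151044881, minus strand: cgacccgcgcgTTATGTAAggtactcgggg
Per3, D-box TTATGTAA, from -158, chr4:151044805-151044834, minus strand: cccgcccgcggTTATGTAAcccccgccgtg
Per1, D-box variant TTATGCAA, from -24, chr11:69098914-69098943, plus strand: agggcctggcaTTATGCAAcccgcctccca

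Among the 32851 promoter windows counted, which left out chromosome 18, 7.15% held the E-box CACGTG, 2.61% held TAGGTCA, 1.44% held TAGGTTA, 0.938% held TTATGTAA and 0.743% held TTATGCAA. Both ROR elements thus stood in the Arntl window, and the D-box stood at 2 places in the Per3 window. The E-box variant CACGTT, present in 4.68% of windows, was found in Cry1, Cry2 and Nr1d1. A cAMP response element (TGACGTCA, in 1.79% of windows) and a C/EBP-ATF element (TGATGNAA, in 3.97%) were in none of the 9 genes. No printed elements shared bases. A match describes letters in a window and was not tested as a binding site.

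The libraries held 13607283 to 23114534 estimated counts. Opa1, the targeted gene, ranged from 152 to 210 CPM (estimated counts scaled to library size) in WT and from 17.9 to 36.9 CPM in OPA1 BKO mice, so that no library overlapped the other genotype. Cells of the tissue in which the Ucp1 promoter is silent keep Opa1. RNA of the mitochondrial genome took 23.1% to 30.4% of counts in WT but 4.41% to 8.96% in OPA1 BKO mice, and for that reason CPM were scaled by trimmed mean of M values (TMM), which sets the median of all genes near no change (log2 fold change of 0.01). Summed markers of skeletal muscle ranged from 3.01 to 12815 CPM between mice, and those of macrophages from 94.5 to 135 CPM in WT against 127 to 525 CPM in OPA1 BKO mice. The brown adipocyte marker Ucp1 was at 2011 CPM or more in every mouse. In bulk tissue, fewer cells of a type and less RNA per cell cannot be told apart.

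Per length, in TPM, a measure that divides counts by transcript length, Nr1d1 had the highest level of the 10 genes, at 45.6 ± 8.39 TPM in WT and 73.9 ± 24.8 TPM in OPA1 BKO mice (SD, n = 8 each). In WT, Dbp followed at 23.9 ± 19.8 TPM, Per1 at 17.9 ± 8.30 TPM and Nr1d2 at 12.01 ± 3.35 TPM. The remaining 6 genes, in WT, had mean levels between 2.94 TPM (Cry1) and 7.85 TPM (Cry2). The order in WT was Nr1d1, Dbp, Per1, Nr1d2, Cry2, Per3, Clock, Arntl, Per2 and Cry1, and no gene differed from the next by more than the sum of their SDs. In OPA1 BKO mice the order was Nr1d1, Per1, Nr1d2, Arntl, Dbp, Cry2, Cry1, Clock, Per3 and Per2, and only Nr1d1 and Per1 (30.7 ± 13.96 TPM) were further apart than that sum. TPM of the 2 genotypes are not on 1 scale. The mitochondrial genome took between 31.6% and 44.8% of TPM in WT libraries but between 8.28% and 15.1% in those of OPA1 BKO mice. On the log2(TPM + 0.5) scale the median log2 fold change of all genes was 0.87, and the part of the mitochondrial genome in it was not tested. Comparisons between genotypes therefore use CPM.

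Between genotypes, 3 of the 10 clock genes passed the test (edgeR quasi-likelihood F test, sex included in the model, Benjamini-Hochberg adjusted p under 0.05). Cry1 and Arntl rose in OPA1 BKO mice, and Per2 fell. Of all genes tested, 41.0% passed the same test, 20.8% higher and 20.2% lower, so that the share of clock genes called was not above that of all genes. All 3 differed by at least 2-fold, and 6.79% of all genes both passed the test and differed by at least 2-fold. The median log2 fold change over the 10 genes was -0.16.

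Cry1, the repressor that acts late in the cycle, was at 10.2, 14.3, 12.1 and 9.80 CPM in the WT females and at 9.38, 10.9, 4.58 and 5.53 CPM in the WT males. In the OPA1 BKO mice it was at 16.8, 29.2, 22.8 and 18.3 CPM in females and at 22.4, 22.6, 18.6 and 19.3 CPM in males. The lowest OPA1 BKO value exceeded the highest WT value, which held for no other member. Among all genes, 5.07% were separated in this direction and 4.89% in the opposite one. The log2 fold change of Cry1 was 1.18 (SE 0.18, adjusted p = 8.38e-05 by edgeR). Its change was also called without any 1 of the 16 mice, with an adjusted p of at most 0.000276.

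Arntl, the activator that pairs with CLOCK, was at 17.1, 17.3, 17.99 and 14.8 CPM in WT females and at 4.88, 5.31, 10.1 and 6.78 CPM in WT males. OPA1 BKO females had 23.7, 29.9, 27.1 and 26.4 CPM, and OPA1 BKO males had 24.3, 23.6, 8.15 and 23.8 CPM. All OPA1 BKO mice except male 3 were thus above all WT mice, while male 3 lay within the range of WT males. The log2 fold change over both sexes was 1.10 (SE 0.22, adjusted p = 0.000883 by edgeR). It stayed between 1.01 and 1.19 when any 1 mouse was left out.

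Clock itself had a log2 fold change of 0.19 (SE 0.11, adjusted p = 0.183 by edgeR), with 29.5 to 55.4 CPM in WT and 31.2 to 59.4 CPM in OPA1 BKO mice. The ranges of both genotypes nearly coincided. With library size alone as the scale, Clock was called at a log2 fold change of 0.75.

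**Figure D1:**
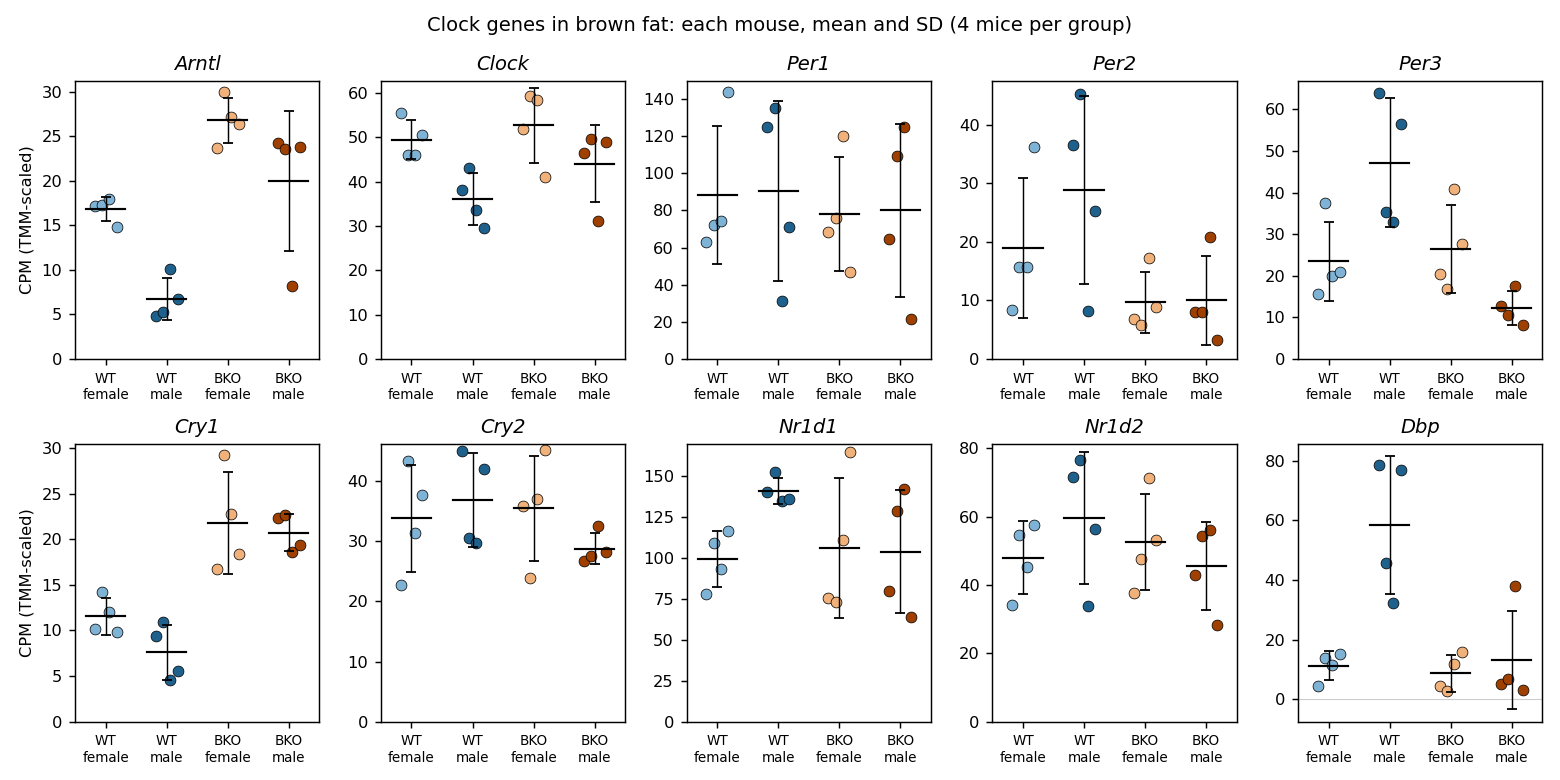
TMM-scaled CPM (vertical axes, starting at or below 0) of the 10 clock genes in each mouse, by group on the horizontal axis, with 4 mice per group as points, the mean as a line and the SD as bars. Cry1 is higher in all 8 OPA1 BKO mice than in all 8 WT mice, Arntl separates WT males (4.88 to 10.1 CPM) from the other groups apart from OPA1 BKO male 3 (8.15 CPM), and Dbp is highest in WT males.

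Per2, which carries the negative limb together with the CRY proteins, was at 8.40, 15.7, 15.7 and 36.2 CPM in WT females and at 36.5, 45.3, 8.24 and 25.3 CPM in WT males. OPA1 BKO females had 6.77, 5.77, 17.3 and 8.93 CPM, and OPA1 BKO males had 8.01, 8.04, 20.8 and 3.23 CPM. Most OPA1 BKO mice were low and most WT mice high, but the ranges overlapped widely. Per2 fell by 1.26 on the log2 scale (SE 0.41, adjusted p = 0.0213 by edgeR). Without WT female 4 the fall was 1.06 with an adjusted p of 0.0564, and without the 8 libraries with 1000 CPM or more of muscle markers (muscle-rich libraries, left out as an alternative chosen after the data were seen) it was 1.43 with an adjusted p of 0.123, so the call was lost in both. It was also lost with library size alone as the scale (-0.70, adjusted p = 0.124) and on both TPM scales (-0.25, adjusted p = 0.509, and -0.28, adjusted p = 0.525).

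Per3, a related gene whose protein is less needed for the rhythm, was at 15.6, 37.4, 19.99 and 20.8 CPM in WT females and at 64.0, 35.3, 33.0 and 56.5 CPM in WT males. It was at 20.5, 16.9, 40.9 and 27.6 CPM in OPA1 BKO females and at 12.8, 10.6, 17.6 and 8.08 CPM in OPA1 BKO males. Females of both genotypes overlapped, whereas the highest OPA1 BKO male was below the lowest WT male. How many of all genes separated the genotypes in this way within males was not counted. Over both sexes the log2 fold change was -0.88 (SE 0.36, adjusted p = 0.0637 by edgeR), and DESeq2 gave an adjusted p of 0.0431. The call was also made by edgeR without WT female 1, 3 or 4 or OPA1 BKO female 3, when the value was between -1.08 and -1.02. In TPM, the processed transcript Per3-204, which is not listed as protein-coding, held 65.9% of Per3 in WT and 56.4% in OPA1 BKO mice. The protein-coding Per3-201 held 27.5% and 35.7%, so the values of Per3 are not those of its coding transcript alone. Single transcripts of Per3 were not tested.

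Per1, which also responds to glucocorticoids and to acute stimuli, showed no difference that passed the test, at a log2 fold change of -0.18 (SE 0.34, adjusted p = 0.699 by edgeR). It spread from 31.3 to 144 CPM in WT and from 21.3 to 125 CPM in OPA1 BKO mice. The spread within each genotype was about as wide as that over all mice.

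Cry2, Nr1d1 and Nr1d2 did not pass the test either. Their log2 fold changes were -0.14 (Cry2, SE 0.15), -0.17 (Nr1d1, SE 0.19) and -0.13 (Nr1d2, SE 0.20), and these signs turned for all 3 genes on the TPM scale, where each had a positive value. Nr1d1, the repressor of Arntl, ranged from 78.0 to 152 CPM in WT and from 63.9 to 164 CPM in OPA1 BKO mice. Nr1d2 ranged from 33.7 to 76.6 CPM in WT and from 28.4 to 71.2 CPM in OPA1 BKO mice, and Cry2 from 22.7 to 45.0 CPM and from 23.9 to 45.1 CPM. The genotypes overlapped over most of these ranges. Nr1d1 lies at chr11:98767932-98775333 on the minus strand of GRCm38 and overlaps the end of Thra on the plus strand by 1075 bases. Whether counting used strand is not given in the sources used here, so reads of the overlap cannot be assigned, and Thra itself differed by a log2 fold change of -0.08 (SE 0.07, adjusted p = 0.369 by edgeR).

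Dbp, which activates D-box genes and is among the most strongly rhythmic transcripts of many tissues, had the widest spread of the 10 genes between mice of a group on the log2 scale. WT females had 4.37, 13.8, 11.6 and 15.1 CPM, while WT males had 78.7, 45.5, 32.1 and 76.9 CPM. OPA1 BKO females had 4.51, 2.71, 11.7 and 15.9 CPM, and OPA1 BKO males had 5.07, 6.68, 37.9 and 3.16 CPM. WT males stood above all other mice except OPA1 BKO male 3, which lay between the lowest 2 of them. The genotype difference of Dbp was a log2 fold change of -1.29 (SE 0.55, adjusted p = 0.0714 by edgeR). It passed the test without WT female 1 (-1.49, adjusted p = 0.0398), without OPA1 BKO female 4 (-1.57, adjusted p = 0.0284) and without OPA1 BKO male 3 (-1.76, adjusted p = 0.0329). Dbp lies at chr7:45705088-45710203 and overlaps Sphk2 on the opposite strand by 737 bases, and 16.9% of the 31-base words of Dbp also occur in Sphk2 on either strand. Sphk2 differed between genotypes by a log2 fold change of -0.06 (SE 0.07, adjusted p = 0.495 by edgeR) and ranged only from 24.6 to 35.7 CPM over all mice. In TPM, the retained-intron transcript Dbp-202 held 25.3% of Dbp in WT and 33.0% in OPA1 BKO mice. The protein-coding Dbp-201 held 28.9% and 26.3%, and Dbp-204, also protein-coding, 15.4% and 23.4%. Single transcripts were not tested.

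The genotype contrasts within each sex differed in size for several members. In females, 1 of the 10 genes passed the test, against 18% of all genes (8.96% higher, 9.03% lower). That gene was Cry1, with a log2 fold change of 0.91 (SE 0.24, adjusted p = 0.0151 by edgeR), and its adjusted p was 0.0552 without OPA1 BKO female 2. Arntl in females had a log2 fold change of 0.67 (SE 0.27, adjusted p = 0.0972 by edgeR), although the lowest OPA1 BKO female was above the highest WT female. How many of all genes separated the genotypes in this way within females was not counted. Arntl in females passed with an adjusted p of 0.0123 by edgeR without OPA1 BKO male 3, which enters through the shared estimate of spread. It also passed with females alone in the fit (0.67, adjusted p = 0.00307 by edgeR).

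In males, 4 of the 10 genes passed the test, against 34.9% of all genes (17.9% higher, 16.9% lower). Arntl rose by 1.56 on the log2 scale (SE 0.28, adjusted p = 0.000638) and Cry1 by 1.45 (SE 0.24, adjusted p = 0.000347), both by edgeR. Per3 fell by 1.95 (SE 0.34, adjusted p = 0.000445) and Dbp by 2.16 (SE 0.71, adjusted p = 0.0271). The Per3 call held without any 1 mouse, with values from -2.17 to -1.77. Dbp lost its call without WT male 1, WT male 4 or OPA1 BKO males 1, 2 or 4, when its log2 fold change was between -2.01 and -1.83, and without OPA1 BKO male 3 it was -3.55. It was also lost with males alone in the fit (-2.16, adjusted p = 0.0507). Per2 in males, at -1.54 (SE 0.59, adjusted p = 0.0546), passed without OPA1 BKO male 3 (-2.17) and without WT male 3 (-1.86), and also without OPA1 BKO female 3 (-1.54) or WT female 4 (-1.55).

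**Figure D2:**
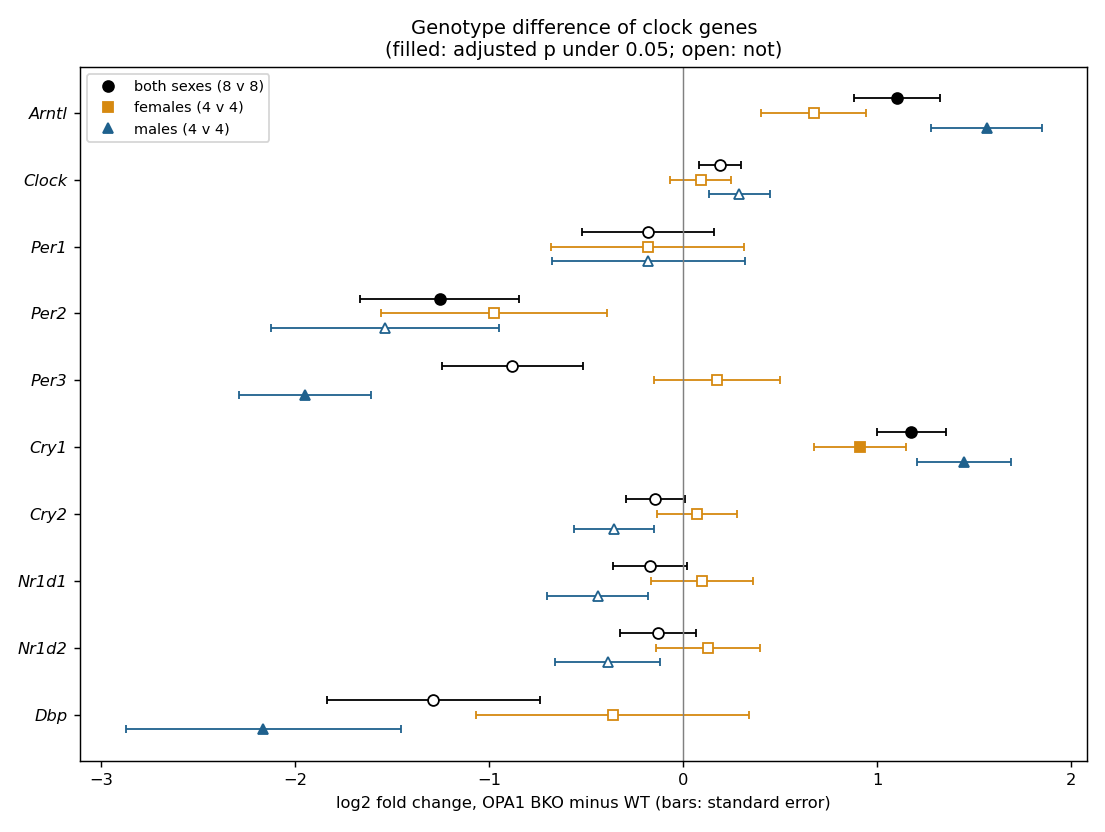
Log2 fold change of each clock gene between OPA1 BKO and WT mice (horizontal axis, bars for the standard error), over both sexes (circles), in females (squares) and in males (triangles), with filled symbols where the adjusted p was under 0.05. Cry1 is filled in all 3 contrasts, and for Per3 the value in females (0.18) and in males (-1.95) lie far apart.

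Whether the genotype difference differed between the sexes was tested by the interaction term. None of the 10 genes passed with edgeR, where 0.115% of all genes passed (0.0960% with a higher and 0.0192% with a lower value in males), although Arntl and Per3 had an unadjusted p under 0.05, as did 13.1% of all genes. Per3 had the largest interaction, -2.12 (males minus females, SE 0.47, adjusted p = 0.0693), and leaving out single mice gave adjusted p-values from 0.0504 to 0.151. DESeq2 called 1 member, Per3, with an adjusted p of 0.00084, and 2.26% of all genes. By edgeR, a call in males and none in females is thus not shown to be a difference between the sexes for any member. For Per3, edgeR and DESeq2 differed.

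Levels also differed between males and females of 1 genotype. With genotype as a term, Arntl was lower in males by 0.85 on the log2 scale (SE 0.22, adjusted p = 0.0409 by edgeR), the only member called. Of all genes 4.24% were called, 2.99% higher and 1.25% lower in males. This call was lost without any 1 of 12 of the mice and held only without WT male 3 or without OPA1 BKO male 1, 2 or 4. Clock had -0.36 (SE 0.11, adjusted p = 0.0738), and it passed without WT male 2 or OPA1 BKO female 4.

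Within WT, males and females did not overlap in 4 of the 10 genes. Arntl and Clock were lower in every WT male than in every WT female, and Nr1d1 and Dbp were higher. Of all genes, 3.16% were lower and 4.45% were higher in WT males in this way. WT females had 46.0 to 55.4 CPM of Clock against 29.5 to 43.2 CPM in WT males, and Nr1d1 was at 78.0 to 116 CPM against 135 to 152 CPM. The log2 differences, male minus female, were -1.31 for Arntl (SE 0.28, adjusted p = 0.065) and 2.37 for Dbp (SE 0.72, adjusted p = 0.131) by edgeR. No member passed with edgeR, where 0.230% of all genes passed (0.160% higher, 0.0704% lower), but 5 of the 10 had an unadjusted p under 0.05, against 16.5% of all genes, and DESeq2 called 3, Arntl, Dbp and Per3, against 3.46% of all genes. Arntl passed with edgeR without OPA1 BKO male 3 (adjusted p = 0.0038) and without WT male 2 (adjusted p = 0.0481).

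Within OPA1 BKO mice, no member separated the sexes, against 8.11% of all genes that were higher and 5.25% that were lower in every male. None passed with edgeR, where 3.85% of all genes passed (2.57% higher, 1.28% lower). Per3 alone had an unadjusted p under 0.05, against 20% of all genes, and DESeq2 called it, against 7.5% of all genes. Per3 was lower in males by 1.11 on the log2 scale (SE 0.33, adjusted p = 0.0744 by edgeR).

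The relation of the opposite arms of the loop within a mouse was described by log2 Dbp minus log2 Arntl, in CPM. As both values come from the same library, it does not depend on the scaling between mice. WT males had the highest values, from 1.67 to 4.01, and WT females had -1.97 to 0.03. OPA1 BKO females ranged from -3.46 to -0.73. Of the OPA1 BKO males, male 3 had 2.22, within the range of WT males, whereas the lowest had -2.91. Nr1d1 minus Arntl gave the same order of groups in WT, with 2.19 to 2.97 in females and 3.74 to 4.84 in males, and OPA1 BKO male 3 again lay among the WT males at 4.12. Per3 minus Arntl separated the WT sexes too, at -0.14 to 1.12 and 1.71 to 3.71, but here OPA1 BKO male 3, at 1.11, lay below every WT male. These are descriptions of 16 single time points and were given no test.

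**Figure D3:**
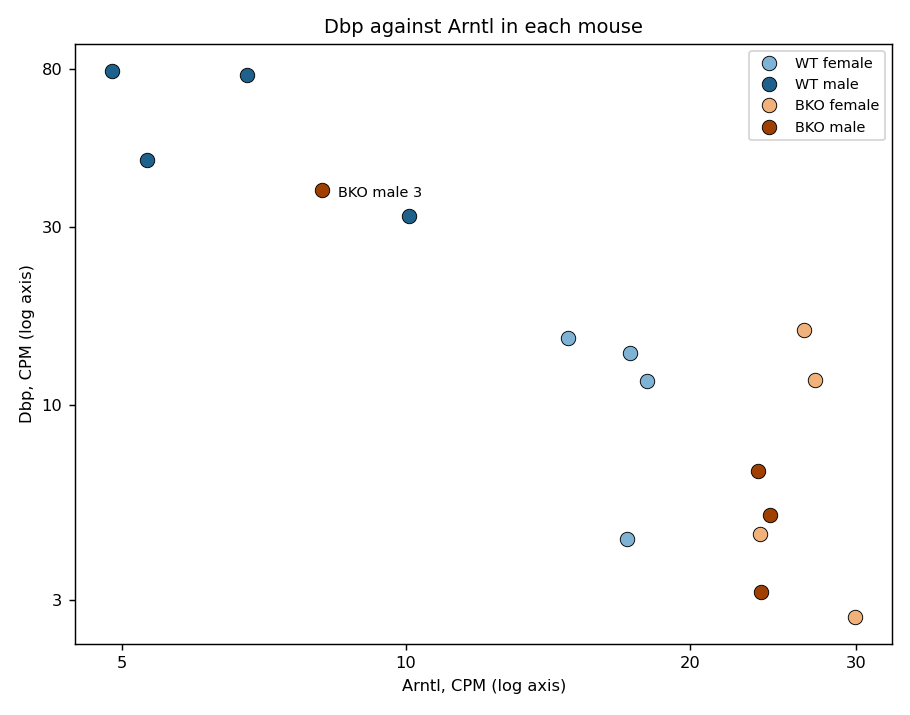
Dbp (vertical axis) against Arntl (horizontal axis) in CPM for each of the 16 mice, both axes logarithmic, coloured by group. WT males hold the corner of low Arntl and high Dbp together with OPA1 BKO male 3 (8.15 CPM of Arntl and 37.9 CPM of Dbp), WT females lie between 14.8 and 17.99 CPM of Arntl, and the other OPA1 BKO mice lie at 23.6 CPM of Arntl or more.

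Mice of the same group differed more in Dbp, Per2 and Per1 than in most genes. The SD of log2 CPM within groups was 1.11 for Dbp, 0.95 for Per2 and 0.85 for Per1, against 0.24 for the median gene with counts in every mouse. Among the 10347 genes with a mean of 5 CPM or more, these values were at the 98.7, 98.5 and 98.3 percentiles. Per3 (0.51), Arntl (0.46), Nr1d2 (0.44), Nr1d1 (0.41), Cry1 (0.38) and Cry2 (0.32) were also above the median gene, and Clock (0.24) was close to it. Among the 10347 genes, Clock was at the 71.5 percentile.

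Because Arntl formed separate clusters in WT females and WT males, relations with Arntl over the WT sexes together are not interpreted, and 4 mice of 1 sex are too few. Within the 8 OPA1 BKO mice, none of the 9 relations passed after adjustment over the 18 computed in both genotypes, by either measure. Dbp had Pearson's r of -0.72 with Arntl (exact permutation p = 0.0675, adjusted p = 0.243) and Spearman's rho of -0.36 (exact permutation p = 0.389, adjusted p = 0.696). Without OPA1 BKO female 2 and male 3 the r was 0.86, so the negative relation rested on those mice. Clock had r = 0.86 with Arntl and rho = 0.55 (exact permutation p = 0.016 and 0.171, adjusted p = 0.096 and 0.385), and at r = 0.07 without the same 2 mice. No relation of a member with the library number, which runs from 1 to 16, passed within groups (exact permutation test within the 4 groups, n = 16, smallest adjusted p = 0.516 over 10 relations).

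Of 10 other transcription factors of the loop, all tested, 4 rose and 2 fell in OPA1 BKO mice (median of the log2 fold changes 0.19). By the same test 20.8% of all genes rose and 20.2% fell. The activators Tef and Hlf fell, by 1.43 (SE 0.24, adjusted p = 0.000186) and 0.99 (SE 0.16, adjusted p = 0.000174) on the log2 scale, and the D-box repressor Nfil3 rose by 0.93 (SE 0.22, adjusted p = 0.00307), all by edgeR. On the TPM scale Tef was still lower at -0.56 and Nfil3 was higher at 1.91, but Hlf turned to 0.16 and was not called.

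Tef was at 76.0, 120, 129 and 162 CPM in WT females and at 234, 184, 136 and 226 CPM in WT males. It was at 52.0, 39.2, 67.5 and 73.3 CPM in OPA1 BKO females and at 56.6, 45.3, 94.5 and 29.1 CPM in OPA1 BKO males. OPA1 BKO male 3 was the only OPA1 BKO mouse above the lowest WT mouse. Tef fell in females (log2 fold change -1.07, adjusted p = 0.0291) and in males (-1.79, adjusted p = 0.000579) by edgeR. Hlf also fell in both sexes (-0.71, adjusted p = 0.0319 in females and -1.27, adjusted p = 0.000351 in males, by edgeR). It had 11.2 to 29.5 CPM in WT and 7.84 to 11.49 CPM in OPA1 BKO mice, where OPA1 BKO male 3, at 11.1 CPM, was among the 2 highest of its genotype and just below the lowest WT mouse.

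Nfil3 spread from 10.7 to 40.2 CPM in WT and kept within 36.3 to 54.5 CPM in OPA1 BKO mice. Only WT females 3 and 4 reached the OPA1 BKO range, and 3 of the 4 WT males were at 10.7 to 14.8 CPM. Npas2, which can replace CLOCK as the partner of ARNTL, rose by 0.77 (SE 0.22, adjusted p = 0.01 by edgeR), from a range of 1.22 to 7.21 CPM to 2.67 to 11.6 CPM, and lost its call without the muscle-rich libraries (0.51, adjusted p = 0.279). Rora, an activator of Arntl, rose by 0.55 (SE 0.14, adjusted p = 0.00452), and Bhlhe40, a repressor at E-boxes, rose by 0.67 (SE 0.20, adjusted p = 0.0119), both by edgeR.

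Rorb, Bhlhe41 and Ciart did not pass. Bhlhe41, a relative of Bhlhe40, had a log2 fold change of 0.27 (SE 0.21, adjusted p = 0.308 by edgeR), and its highest mouse was OPA1 BKO male 3, at 25.8 CPM against 5.82 to 14.5 CPM in the other OPA1 BKO mice. Ciart, a repressor of the CLOCK pair, had -0.41 (SE 0.35, adjusted p = 0.374 by edgeR), and OPA1 BKO male 3 was again the highest of its genotype, at 8.63 CPM.

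**Figure D4:**
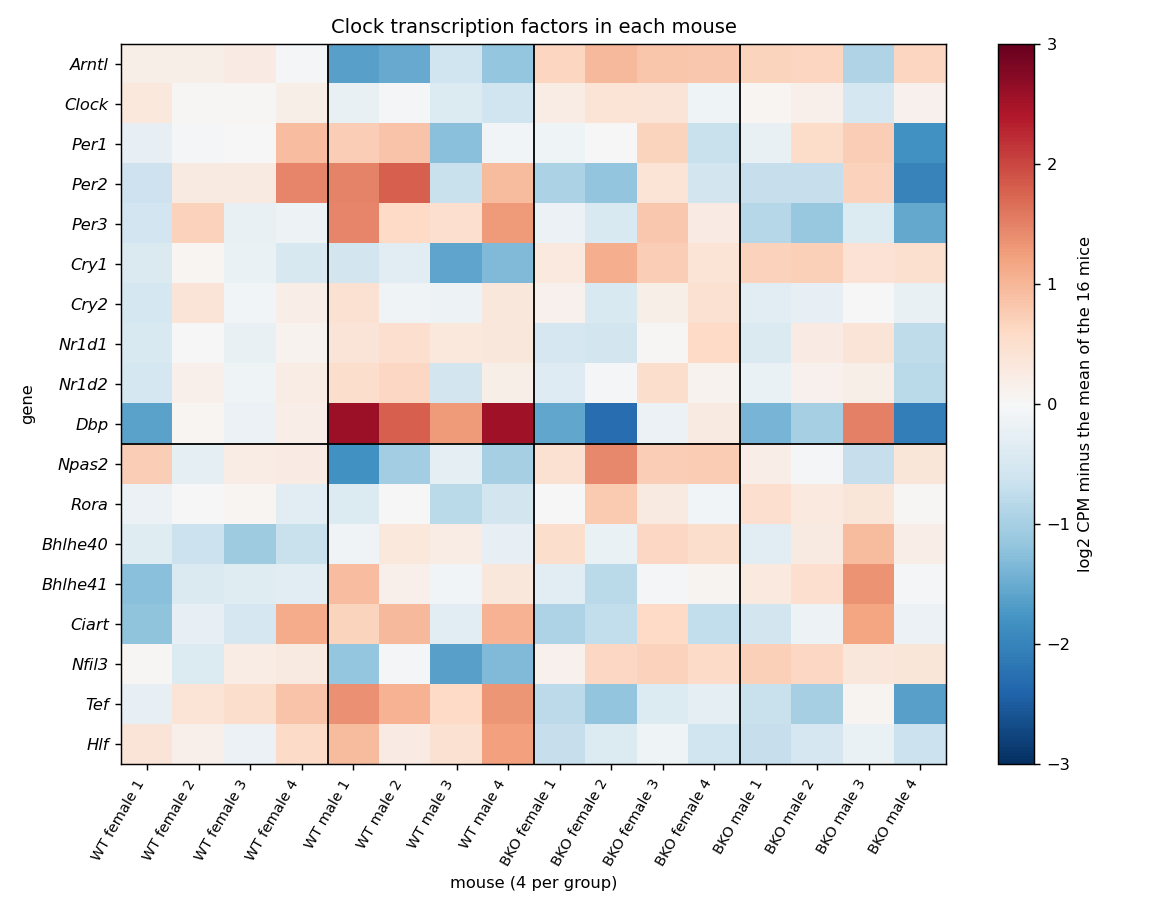
Log2 CPM of the 10 clock genes (above the line) and of 8 other clock transcription factors (below it) in each mouse, as the difference from the mean of the 16 mice (red above, blue below, scale from -3 to 3), with mice in columns by group. Tef and Hlf are mostly red in WT and blue in OPA1 BKO mice, Nfil3 and Cry1 are red in the OPA1 BKO mice, and OPA1 BKO male 3 shows low Arntl, Clock and Npas2 with high Dbp, Bhlhe41 and Ciart.

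Genes that modify clock proteins showed smaller differences. Of 7 kinases and ubiquitin ligases, 4 rose and none fell (median of the log2 fold changes 0.21), against 20.8% and 20.2% of all genes. The kinases Csnk1d and Gsk3b, which phosphorylate clock proteins, rose by 0.21 (SE 0.07, adjusted p = 0.0308) and 0.34 (SE 0.10, adjusted p = 0.0119). Fbxw11, a ligase subunit that acts on PER proteins, rose by 0.41 (SE 0.11, adjusted p = 0.00863), all by edgeR. Without the muscle-rich libraries 2 of the 7 were called, against 21.8% of all genes. Gsk3b was among them, while Csnk1d and Fbxw11 were not. Of 6 co-regulators, Crebbp rose by 0.25 (SE 0.08, adjusted p = 0.0158) and Hdac3, the deacetylase that NR1D1 recruits, fell by 0.41 (SE 0.06, adjusted p = 0.000107) by edgeR, while on the TPM scale Hdac3 turned to 0.52. Crebbp was not called without the muscle-rich libraries (0.29, adjusted p = 0.118).

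Of 7 known output genes of the clock, none rose and 3 fell (median of the log2 fold changes -0.43). By the same test 41.0% of all genes were called, 20.8% higher and 20.2% lower. Por, the electron donor of cytochrome P450 enzymes, fell by 0.70 (SE 0.10, adjusted p = 3.73e-05), Tspan4 by 0.91 (SE 0.21, adjusted p = 0.00228) and Nampt, an enzyme of NAD synthesis, by 0.43 (SE 0.10, adjusted p = 0.00315), all by edgeR. Tspan4 and Nampt were not called without the muscle-rich libraries, and on the TPM scale all 3 values were positive (0.28, 0.13 and 0.56). Usp2, Wee1, Alas1 and Tsc22d3 did not pass.

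Acute signals can also move Per1 and other members. Of 6 glucocorticoid-responsive genes, 1 passed, Sgk1, lower by 0.51 (SE 0.18, adjusted p = 0.0306 by edgeR), and it turned to 0.57 on the TPM scale and was not called without the muscle-rich libraries (-0.48, adjusted p = 0.291). Fkbp5, a sensitive glucocorticoid target, was highest in WT female 4, at 26.3 CPM, followed by WT male 2, at 24.3 CPM, against a WT median of 5.69 CPM. These 2 mice also had the highest Per1 of all, 144 and 135 CPM. Of 7 immediate early genes and 7 temperature-responsive genes, none passed with edgeR or DESeq2, with 0 and 1 at an unadjusted p under 0.05. For all genes, 41.0% passed with edgeR and 42.6% with DESeq2, and 48.9% had an unadjusted p under 0.05 with edgeR. Without the muscle-rich libraries, the immediate early genes Fos, Junb, Egr1 and Sik1 were called higher, as was Dusp1 of the glucocorticoid list (1.57, adjusted p = 0.00509 by edgeR), and the cold-inducible gene Cirbp was called lower (-0.62, adjusted p = 0.0415). That setting called 21.8% of all genes. Hspa1a, a heat shock gene, reached 117 CPM in OPA1 BKO male 3 against a median of 14.6 CPM in its genotype, and reached 158 CPM in WT male 1. The part of these signals in the clock genes was not tested.

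All 7 genes of the integrated stress response list rose in OPA1 BKO mice (median of the log2 fold changes 2.79), as did 20.8% of all genes. OPA1 BKO male 3, whose Arntl and Dbp lay in the range of WT males, had 414 CPM of Atf4, the central factor of that response. This was within the range of 230 to 420 CPM of its genotype. The same mouse had the lowest Chac1 of its genotype, at 3.71 CPM, and the lowest Trib3, at 226 CPM, just below male 4 at 228 CPM. Its Ddit3, Asns and Fgf21 lay within the range of the other OPA1 BKO mice. Its Gdf15, a stress-induced hormone, was at 119 CPM, against 4.19 to 37.4 CPM in the other OPA1 BKO mice. Its Opa1 was at 30.6 CPM.

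Among markers of other cell types, all 7 of macrophages were higher, as were 3 of 5 of lipid-associated macrophages and 3 of 5 of fibroblasts. Lower were 3 of 6 of lymphocytes and 3 of 5 of endothelium, and none of 6 of skeletal muscle or 4 of Schwann cells passed with edgeR or DESeq2, with 0 at an unadjusted p under 0.05. The brown adipocyte list had 2 of 10 higher and 4 lower. By the same edgeR test 20.8% of all genes were higher and 20.2% lower. Without the 8 muscle-rich libraries, which left 2 mice per group, Cry1 (1.28, adjusted p = 0.00487) and Arntl (1.14, adjusted p = 0.0118) were still called by edgeR. The part of the other cell types in these values was not tested.

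The genes whose deviations from the group means were most like those of Dbp over the 16 mice were found among 13430 genes with a mean of 1 CPM or more and counts in every mouse. As a description, the highest Pearson correlations were those of Bhlhe41 (0.94), Akr1a1 (0.94) and Tef (0.93), followed by Gpihbp1 (0.90), Snhg15 (0.88), Upf3a (0.88), Fas (0.86), Psmd8 (0.85), Rasip1 (0.85) and Timp3 (0.85). The first and the last of the leading 3 are clock factors, and Akr1a1 encodes an aldehyde reductase. Nr1d1 was at rank 18 (0.83), Per3 at rank 57 (0.79), Per2 at rank 75 (0.77) and Cry2 at rank 108 (0.75). Further down were Nr1d2 at rank 282 (0.67), Per1 at rank 1124 (0.51) and Cry1 at rank 7926 (-0.06). Arntl (-0.70) and Clock (-0.71) had negative values. The lowest correlations were those of Ddx19b (-0.89), Slc16a1 (-0.87), Chac2 (-0.86), Zfp966 (-0.86) and Ttc14 (-0.85), and Npas2 was at -0.71. Each value rests on the same 16 libraries, which all these genes share. They include OPA1 BKO male 3, whose Dbp (37.9 CPM) stood far above that of the other OPA1 BKO males (3.16 to 6.68 CPM). The weight of this mouse in the correlations was not tested.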

How the data were processed

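Per the labels, polyadenylated RNA of BAT from 16 mice was sequenced from stranded libraries. The authors deposited, for each mouse, kallisto output (version 0.45.0 in the submitters' processing notes, mm10) with estimated counts and TPM per transcript. The deposited estimated counts are not normalized between mice, and the deposited TPM are scaled by the authors to effective length and to the same total in every mouse. Strand setting and index release are not given in the sources used here.

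Transcripts were joined to GENCODE M21 genes without version (133284 of 135308 matched), and estimated counts were summed and rounded. Total counts were 13607283 to 23114534, and lower totals give less precise values. After filterByExpr (minimum count 10, total 15), 15632 genes were tested with edgeR 4.0.16 (R 4.3.3, TMM, prior count 0.125, quasi-likelihood, genotype and sex). Contrasts within a sex or a genotype and the interaction came from 4 group means. P-values were adjusted over all genes tested. The model was tested on simulated data. Alternatives were DESeq2 1.42.0, other scalings and filters, no sex term, limma 3.58.1 on log2(TPM + 0.5) or log2(TPM + 0.1), and leaving out each mouse. Mice were grouped by labels and replicates numbered by name only. The labels do not say which mice shared a litter, so p-values measure the spread between these mice. Named genes were the 10 members, genes of lists of clock partners, stimuli and cell types, and the genes most and least correlated with Dbp. The alternative without muscle-rich libraries, the contrasts of the sexes within a genotype and leaving out mice within a sex were added after the data were seen. Members and lists were chosen with earlier results of these data known. Some genes of these lists are counted but not reported here by name.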

Additional observations from a re-analysis of the deposited data

Results flagged for a closer look

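Among the 40 sets of 4 mice, made of 10 clock genes in 4 groups, 4 had 1 mouse far from the other 3 by Dixon's test, which chance gives in about 1 of 20 sets. OPA1 BKO male 3 had 8.15 CPM of Arntl, against 23.6 to 24.3 CPM in the other OPA1 BKO males. The same mouse had 31.2 CPM of Clock, against 46.6 to 49.5 CPM. It also had 37.9 CPM of Dbp, against 3.16 to 6.68 CPM. WT female 4 had 144 CPM of Per1, against 63.3 to 74.5 CPM in the other WT females.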

How the results depend on the processing

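Of 10 clock genes, 3 were called between genotypes, and 5 with library size alone, 5 without the sex term, 6 with log2(TPM + 0.5) and 6 with log2(TPM + 0.1). DESeq2 called 4, and leaving out 1 mouse 3 to 5. Library size alone moved the median of all genes to 0.57 and both TPM scales to 0.87 and 0.93, with 10869 genes higher and 373 lower by library size, against 3255 and 3157 with TMM. On these scales Cry2 turned to 0.41, 0.79 and 0.83 and Nr1d2 to 0.43, 0.82 and 0.84, and Nr1d1 turned to 0.64 on both TPM scales. Cry1 and Arntl were called between genotypes under each alternative, and Per2 was not on any of these 3 scales. In females 1 gene was called, 2 with females alone in the fit, and 0 to 2 without 1 mouse; in males 4 were called, 3 with males alone in the fit, and 3 to 6 without 1 mouse. The interaction had 0 calls and 1 with DESeq2. Males against females had 1 call, 2 with DESeq2, and 0 to 1 without 1 mouse. Within WT this count was 0, 3 with DESeq2 and 0 to 1 without 1 mouse, and within OPA1 BKO 0 and 1 with DESeq2. Of the 18 relations with Arntl, by Pearson's r 0 passed in CPM and 1 in log2(TPM + 0.5), Clock in OPA1 BKO mice. By Spearman's rho 2 passed in CPM, Nr1d1 and Dbp over the WT mice, whose sexes formed separate clusters, and 0 in log2(TPM + 0.5). Where 1 mouse left a group, the other 3 and the pooled spread gave the test. No paired analysis was run, because the labels give the groups no shared replicate numbers. Library numbers ran through the 4 groups in turn, and sets of consecutive libraries were not tested. The lowest member counts, 55 for Dbp and 60 for Cry1 in 1 mouse, limit precision there. The cause of each change was not tested.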
